A study of Mus musculus with 8 samples.

Results

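The 10 genes described here are adipogenic factors and lipid storage genes, namely *Pparg*, *Cebpa*, *Cebpb*, *Cebpd*, *Fabp4*, *Lpl*, *Plin2*, *Adipoq*, *Zfp423* and *Klf15*. They were taken by symbol from the 54532 entries of a table of RNA sequencing read counts, of which 27324 had at least 1 count. The RNA came from primary lung fibroblasts (pFBs), cells that grow out of minced lung tissue in culture, of female mice on a strain background labelled C57/black. Wild type (WT) cells were compared with cells of homozygous (HOMO) transgenic mice, which carry a CRISPR/Cas9 knock-in that expresses human IGFBP5 (hIGFBP5) throughout the body, with 4 libraries per genotype and no treatment. IGFBP5 is a secreted protein that binds insulin-like growth factors. The number of mice behind the libraries is not given in the sources used here.

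Fat cell formation runs as a relay of transcription factors. C/EBPβ and C/EBPδ, the products of *Cebpb* and *Cebpd*, act early and switch on *Cebpa* and *Pparg*, whose products sustain each other and switch on the genes for fatty acid uptake, lipid droplets and adipokines. In the lung, fibroblasts that store lipid droplets (lipofibroblasts) stand next to the alveolar epithelium and share part of this program, and many of the genes also serve other cells, macrophages among them.

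The RefSeq start-site table for the GRCm38.p6 assembly held windows for 7 of the 10 members, all but *Lpl*, *Fabp4* and *Cebpd*. The window shown is the 250 bases upstream of the most downstream of the *Pparg* start sites in the table (chr6:115421816-115422065, + strand), shown because C/EBP proteins are textbook regulators of *Pparg* and picked among the 3 *Pparg* windows after the matches were seen, since the other 2 had 0 matches to the C/EBP-type letters. Capitals mark matches, on either strand, to the C/EBP-type letters TTGCNNAA and to the CCAAT box, whose matches did not overlap:
Pparg: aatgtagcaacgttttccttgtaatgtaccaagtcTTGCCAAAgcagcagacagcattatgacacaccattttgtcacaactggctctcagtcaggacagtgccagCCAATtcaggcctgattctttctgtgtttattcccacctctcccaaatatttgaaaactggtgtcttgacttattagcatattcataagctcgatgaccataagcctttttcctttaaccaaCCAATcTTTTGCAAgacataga
TTGCNNAA matched at 2 places in this window and was found in 9.56% of 32851 windows of this length, and CCAAT matched at 2 places and was found in 33.8%. The GC box GGGCGG and the letters TATAAA, found in 32.7% and 12.4% of the windows, had no match here. These are letter matches and not measured binding.

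Library totals were 17236521 to 29028769 counts in WT and 19009027 to 31987790 counts in HOMO. The libraries did not vary evenly. WT1 and WT2 differed by a biological coefficient of variation (BCV, the spread beyond counting noise) of 7.65%, HOMO1 and HOMO2 by 4.71%, and HOMO3 and HOMO4 by 5.07%, whereas the other pairs of libraries of the same genotype differed by 30.0% to 56.4%. The near-identical pairs still differed by more than counting noise and were kept as separate libraries, and the p-values below measure only the spread between these libraries. WT3 also stood apart by mouse *Igfbp5*, at 409 CPM (counts scaled to a common library total) against 4.34 to 9.65 CPM in the other WT libraries and 1.07 to 2.86 CPM in HOMO. The human transgene has no row in the table, so these counts do not check the genotype labels.

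CPM values were scaled by TMM, a normalization that lines up the bulk of the genes between libraries. Genotypes were compared with edgeR's quasi-likelihood test over 14150 genes with sufficient counts, with Benjamini-Hochberg adjustment over all of them, and a gene was called where the adjusted p was under 0.05 and the log2 fold change exceeded 0.6 in size. Positive fold changes are higher in HOMO. *Lpl* alone of the members was called. It was far more abundant in HOMO pFBs, whereas none of the 6 transcription factor genes, nor *Fabp4* or *Plin2*, passed the test, and *Adipoq* had 0 counts in all 8 libraries. Thus 1 of the 9 tested members was called, or 11.1%, against 12.1% of all tested genes (5.94% higher and 6.18% lower in HOMO). With DESeq2 1 of the 9 was called, against 16.5% of the 17610 genes it tested. With limma-voom and sample weights 6 of the 9 were called, against 25.3% of all tested genes, under weights that counted WT1 and WT2 most and WT3 and WT4 least. The median log2 fold change of the tested members was 0.53, against -0.04 over all tested genes.

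**Figure D1:**
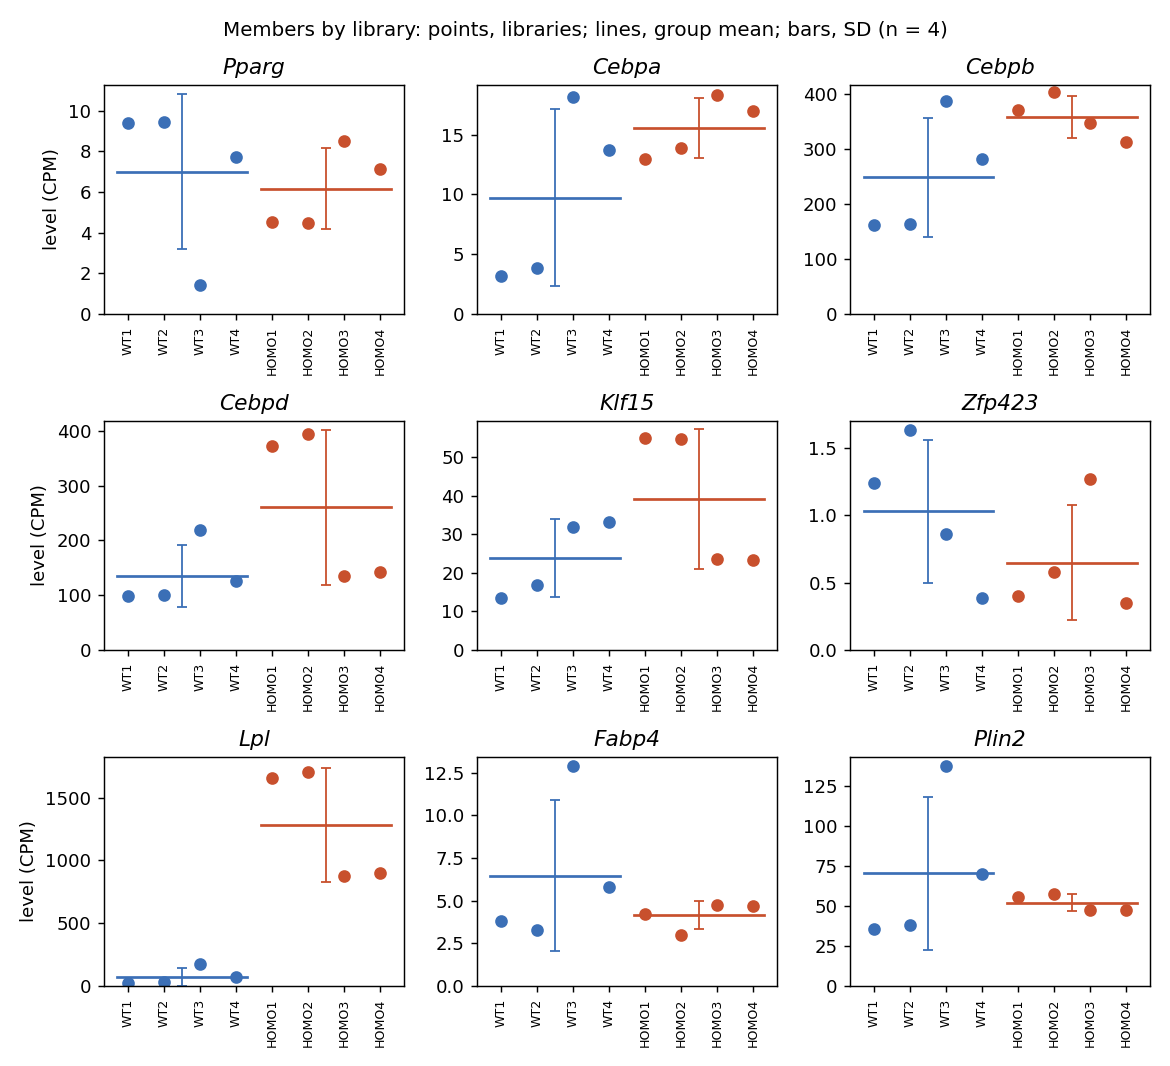
Level of each tested member by library, in CPM on linear axes that start at 0; points are libraries (WT blue, HOMO red), horizontal lines are genotype means and bars are SD (n = 4 libraries). The HOMO libraries sit above all WT libraries only for *Lpl*, and in the other 8 panels the genotypes overlap.

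*Lpl* encodes lipoprotein lipase, a secreted enzyme that releases fatty acids from circulating triglyceride. It lies at chr8:68880491-68907448 on the mouse mm10 (GRCm38) genome. Its level was 21.6, 28.8, 175 and 66.04 CPM in WT1 to WT4 and 1653, 1704, 879 and 903 CPM in HOMO1 to HOMO4. Every HOMO library was above every WT library, and the lowest HOMO library was 5.01-fold above the highest WT library. The genotypes do not overlap for 27.3% of all tested genes, and *Lpl* was the only member among the 9 tested of which this held. The mean was 72.96 ± 71.03 CPM in WT and 1285 ± 455 CPM in HOMO (SD, n = 4), a log2 fold change of 4.14 (SE 0.70) and an adjusted p of 0.00973 (edgeR quasi-likelihood test), which is 17.6-fold. Of the tested genes 0.431% had a log2 fold change this large or larger.

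The gain was not even across the HOMO libraries. The mean of HOMO1 and HOMO2 was 1.88-fold that of HOMO3 and HOMO4, and in WT the level in WT3 was 6.96-fold and that in WT4 2.62-fold the mean of WT1 and WT2. By mean CPM *Lpl* ranked 56 among all genes in HOMO and 3235 in WT. The median log2 fold change of the genes on chromosome 8, where *Lpl* lies, was 0.37. In bulk RNA a change in the number of cells of a type and a change in RNA per cell cannot be told apart.

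The *Lpl* call rests on how the near-identical libraries are counted. With each such pair summed to 1 library, which leaves 3 WT and 2 HOMO libraries, the log2 fold change was 3.88 with an adjusted p of 0.235 and an unadjusted p of 0.00257 (edgeR quasi-likelihood test), and no gene of the table was called, with 2057 at an unadjusted p under 0.05. Without HOMO1 and HOMO2 it was 3.62 with an adjusted p of 0.127 (edgeR). Over 20 alternative settings the log2 fold change lay between 3.42 and 5.28, and leaving out single libraries gave adjusted p-values of 0.00227 to 0.0345 (edgeR).

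*Cebpb* and *Cebpd* encode C/EBPβ and C/EBPδ, the early factors. *Cebpb* (chr2:167688915-167690418) measured 162, 164, 387 and 281 CPM in WT1 to WT4 and 371, 403, 348 and 313 CPM in HOMO1 to HOMO4. WT1 and WT2 were low, and WT3 lay within the HOMO range. The means of 248 ± 108 CPM in WT and 359 ± 38.1 CPM in HOMO (SD, n = 4) gave a log2 fold change of 0.53 (SE 0.29) and an adjusted p of 0.234 (edgeR). Without WT3 the genotypes no longer overlapped and the gene was called, with a log2 fold change of 0.82 and an adjusted p of 0.0387 (edgeR).

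*Cebpd* (chr16:15887286-15891031) measured 98.00, 99.6, 218 and 127 CPM in WT1 to WT4 and 372, 393, 135 and 142 CPM in HOMO1 to HOMO4. HOMO1 and HOMO2 were high, at 2.77-fold the mean of HOMO3 and HOMO4, while HOMO3 and HOMO4 lay within the WT range. The fit gave a log2 fold change of 0.94 (SE 0.43) and an adjusted p of 0.167 (edgeR). Of the exon bases of *Cebpb*, 20.7% also belong to *Tmem189* on the opposite strand, and of those of *Cebpd* 15.0% belong to *Spidr*. Whether counting used the strand is not given in the sources used here, so reads from these stretches are of uncertain origin.

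*Zfp423* encodes a zinc finger factor that marks cells committed to the fat lineage. It lies at chr8:87661810-87959595 and was scarce, at 1.24, 1.63, 0.861 and 0.387 CPM in WT1 to WT4 and 0.401, 0.575, 1.27 and 0.351 CPM in HOMO1 to HOMO4. High and low libraries occurred in both genotypes, with a log2 fold change of -0.67 (SE 0.56) and an adjusted p of 0.447 (edgeR).

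*Pparg* encodes PPARγ, the nuclear receptor that governs fat cell identity and is also active in alveolar macrophages. It lies at chr6:115360951-115490399. Its level was 9.40, 9.44, 1.43 and 7.74 CPM in WT1 to WT4 and 4.55, 4.48, 8.52 and 7.12 CPM in HOMO1 to HOMO4. WT3 was 6.56-fold below the mean of WT1 and WT2, and the HOMO libraries lay between WT3 and the other WT libraries, with HOMO3 also above WT4. The means were 7.002 ± 3.79 CPM in WT and 6.16 ± 1.99 CPM in HOMO (SD, n = 4), with a log2 fold change of -0.19 (SE 0.52) and an adjusted p of 0.836 (edgeR).

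*Cebpa* encodes C/EBPα, the partner of PPARγ in keeping up the fat cell program. It lies at chr7:35119293-35121928, with 1.93% of its exon bases shared with the opposite-strand entry *Gm45091*. Its level was 3.21, 3.82, 18.1 and 13.7 CPM in WT1 to WT4 and 12.97, 13.9, 18.3 and 16.99 CPM in HOMO1 to HOMO4. The spread was mostly within WT, where WT3 was 5.16-fold and WT4 3.90-fold the mean of WT1 and WT2 and both reached the HOMO range. The fit gave a log2 fold change of 0.68 (SE 0.53) and an adjusted p of 0.411 (edgeR).

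*Klf15* encodes a Krüppel-like factor that promotes adipogenesis and is induced by glucocorticoids. It lies at chr6:90462576-90475238 and measured 13.6, 16.9, 32.02 and 33.3 CPM in WT1 to WT4 and 55.1, 54.8, 23.6 and 23.4 CPM in HOMO1 to HOMO4. HOMO1 and HOMO2 were the highest, at 2.34-fold the mean of HOMO3 and HOMO4, which lay between the WT libraries. The fit gave a log2 fold change of 0.71 (SE 0.41) and an adjusted p of 0.261 (edgeR). Without HOMO1 and HOMO2 the log2 fold change was -0.017.

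*Fabp4* encodes the fatty acid binding protein of fat cells and macrophages. It lies at chr3:10204088-10208576 and measured 3.83, 3.30, 12.9 and 5.81 CPM in WT1 to WT4 and 4.19, 2.995, 4.76 and 4.71 CPM in HOMO1 to HOMO4. WT3 was the highest library, and the other 7 libraries lay between 2.995 and 5.81 CPM. The fit gave a log2 fold change of -0.63 (SE 0.44) and an adjusted p of 0.354 (edgeR).

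*Plin2* encodes perilipin 2, the protein that coats lipid droplets in most cell types. It lies at chr4:86648386-86670060 and measured 35.5, 37.8, 138 and 70.3 CPM in WT1 to WT4 and 55.3, 57.6, 47.4 and 47.6 CPM in HOMO1 to HOMO4. All 4 HOMO libraries lay between WT1 and WT2 below and WT3 and WT4 above. The fit gave a log2 fold change of -0.44 (SE 0.41) and an adjusted p of 0.492 (edgeR), and without WT3 the log2 fold change was 0.12.

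*Adipoq* encodes adiponectin, a hormone made by fat cells, and lies at chr16:23146536-23158028. It had 0 counts in each of the 8 libraries, which at these depths allows a level of up to 0.0908 to 0.172 CPM per library (3 counts, counting error only).

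**Figure D2:**
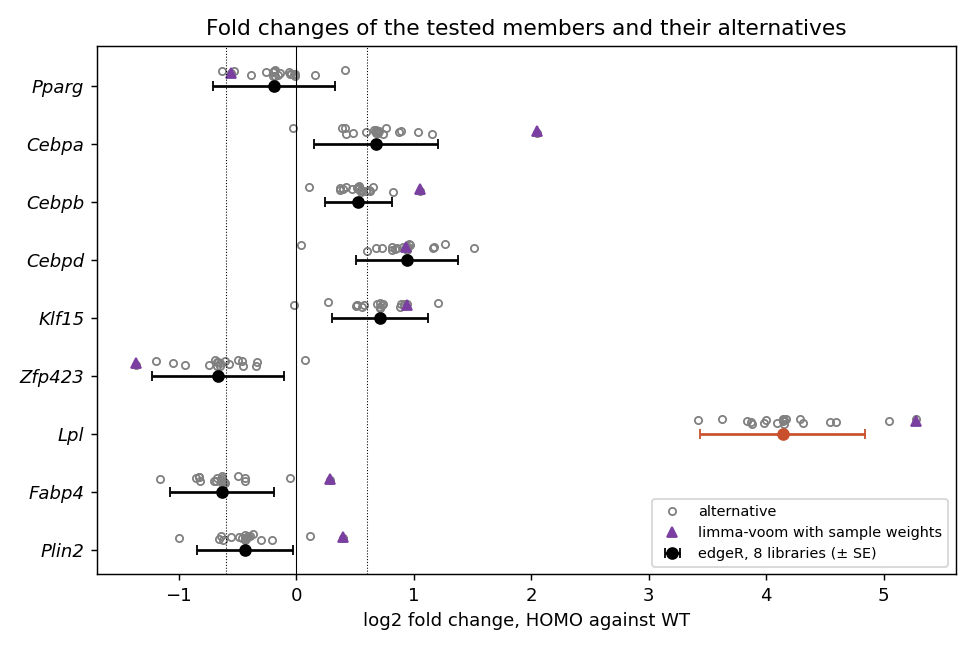
Log2 fold change of HOMO against WT for the 9 tested members: filled points with bars are the edgeR estimate ± SE over 8 libraries (red, called), open circles are the alternative settings, triangles are limma-voom with sample weights, and dotted lines mark 0.6 in size. Every estimate of *Lpl* lies between 3.42 and 5.28, whereas those of *Pparg*, *Cebpa*, *Zfp423*, *Klf15*, *Fabp4* and *Plin2* reach both sides of 0.

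Levels were also scaled by the combined length of all annotated exons of each gene, to a TPM-like level. By this measure *Cebpb* ranked first among the members in both genotypes, with mean levels of 540.4 in WT and 886 in HOMO. *Cebpd* followed in WT at 119 and was at 258 in HOMO. *Lpl* passed from 21.6 in WT, below *Plin2* at 64.0 and *Klf15* at 28.2, to 455 in HOMO. *Cebpa* and *Pparg* were low at 11.7 and 8.50 in WT and 21.9 and 7.76 in HOMO, and *Fabp4* and *Zfp423* were lower still. The annotated exons of *Fabp4* span the whole gene as 1 block of 4489 bases, so its level per length is understated. The order of the members depends on these lengths, which were 10478 bases for *Lpl* and 1504 bases for *Cebpb*. Without scaling by length the HOMO mean of *Lpl* was above that of *Cebpb*, at 1285 against 359 CPM.

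**Figure D3:**
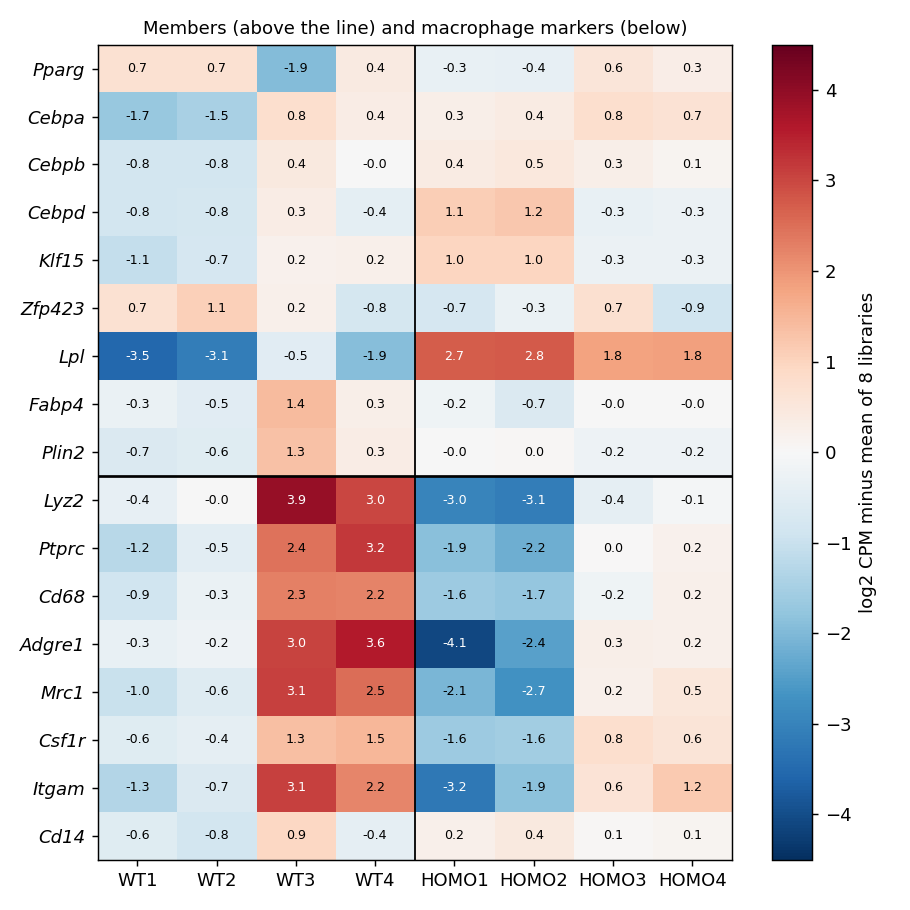
Log2 CPM of each tested member (above the line) and of the 8 tested macrophage markers (below it) as the difference from the mean of the 8 libraries, with the value in each cell. *Lpl* is above its mean in the 4 HOMO libraries, *Fabp4* and *Plin2* are highest in WT3, and 7 of the 8 macrophage markers are highest in WT3 and WT4, whereas *Cd14* is highest in WT3 and lowest in WT1, WT2 and WT4.

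Across libraries, *Cebpa* and *Cebpb* ran together (Pearson r = 0.93 of log2 CPM), as did *Cebpd* and *Klf15* (r = 0.93) and *Fabp4* and *Plin2* (r = 0.87), while *Pparg* and *Plin2* ran opposite (r = -0.90). These values describe 8 libraries that include the near-identical pairs. By the same measure the tested genes most like *Lpl* were *Sfrp2* (r = 0.997), *Atp8a1* and *Ltbp4* (both r = 0.996), which were all called higher in HOMO. Those most like *Pparg* were *Caprin1*, *Deptor* and *Zdhhc3* (r = 0.987 to 0.991), and those most like *Cebpa* were *Fgf7*, *Ccdc80* and *Cnp* (r = 0.986 to 0.991), none of them called. For the other 6 tested members the 3 most similar genes were not called either. Likeness was measured over the same 8 libraries as the calls, so the calls of these genes are not separate evidence.

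Macrophages share several of the storage genes, and their markers differed between the libraries. The summed level of 10 macrophage markers was 132, 160, 1972 and 1151 CPM in WT1 to WT4 and 58.0, 61.8, 169 and 194 CPM in HOMO1 to HOMO4. By edgeR 8 markers were tested and none called (4 at an unadjusted p under 0.05), with *Marco* and *Siglecf* near 0. Of all 14150 tested genes, 4573 had an unadjusted p under 0.05 (edgeR). DESeq2 called 3 of 10 markers and limma-voom 1 of 8, against 16.5% and 25.3% of all genes these tools tested. *Lyz2*, which encodes lysozyme, made up most of the sum in WT3 and WT4, at 1707 and 912 CPM. *Cd14*, a lipopolysaccharide coreceptor, did not follow the others, with means of 27.1 CPM in WT and 32.3 CPM in HOMO and 20.9 CPM in WT4. WT3, with the highest sum, also held the highest *Fabp4* and *Plin2* and the highest WT level of *Lpl*, and the part of these markers in the members' levels was not tested. The near-identical HOMO1 and HOMO2 had the highest *Lpl* and the lowest macrophage sums, and a link between these was not tested.

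Fat cell markers were near the limit of detection. The 6 adipocyte markers summed to at most 0.169 CPM in WT and 0.451 CPM in HOMO, none was tested, and 3 of them, among them the adipokine genes *Lep* and *Cfd*, were at 0. The 10 fibroblast markers were all tested, summed to 12938 to 16625 CPM in WT and 14002 to 24383 CPM in HOMO, and 2 of them, *Pdgfrb* and *Vim*, were called lower in HOMO. Endothelial markers summed to 1.33 to 4.34 CPM in WT and 1.43 to 4.21 CPM in HOMO, and *Cldn5* and *Emcn* had at most 3 counts in all. Epithelial markers summed to 0.338 to 5.57 CPM in WT and 3.88 to 11.3 CPM in HOMO with *Cdh1* called higher, mesothelial markers to 51.8 to 155 CPM in WT and 92.2 to 131 CPM in HOMO with *Wt1* called higher, and mural markers to 55.0 to 102 CPM in WT and 49.6 to 67.7 CPM in HOMO with *Rgs5* called lower. These calls were 1 of 2 tested epithelial, 1 of 5 mesothelial and 1 of 5 mural markers. Of all tested genes 5.94% were called higher and 6.18% lower in HOMO.

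Around the members, the wider adipogenic and lipid program was read from lists of 112 other genes, of which 93 were tested and 14 called, 5 higher and 9 lower in HOMO. That is 15.1% against 12.1% of all tested genes, with a median log2 fold change of -0.12. DESeq2 called 25 of 97 of these genes and limma-voom 33 of 93, against 16.5% and 25.3% of all genes these tools tested. With the near-identical pairs summed 0 of these genes were called (edgeR, 14 at an unadjusted p under 0.05), without HOMO1 and HOMO2 1 was, and without WT1 and WT2 26 were. Leaving out 1 library gave 5 to 20, with 5 without HOMO1, 6 without HOMO2 and 9 without HOMO3.

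Among the C/EBP genes and CHOP, members included, edgeR called 0 of 5 tested, with 0 at an unadjusted p under 0.05. DESeq2 called 0 and limma-voom 3. Of all 14150 tested genes, 4573 had an unadjusted p under 0.05 (edgeR). DESeq2 and limma-voom called 16.5% and 25.3% of all genes they tested. *Cebpg*, which encodes a C/EBP protein that dimerizes with the others, had a log2 fold change of 0.05 (SE 0.17) and an adjusted p of 0.871, and *Ddit3*, which encodes the stress-induced inhibitor CHOP, had a log2 fold change of -0.35 (SE 0.40) and an adjusted p of 0.581 (edgeR). *Cebpe* was not tested. Of the PPAR and RXR receptors and coregulators 0 of 13 tested were called (edgeR), and 5 had an unadjusted p under 0.05. DESeq2 called 3 and limma-voom 5, to be read against the same shares of all tested genes. *Ppara*, the fatty acid oxidation receptor, had a log2 fold change of 0.71 (SE 0.32) and an adjusted p of 0.167, and *Ppard*, its widely expressed relative, a log2 fold change of 0.07 (SE 0.16) and an adjusted p of 0.784 (edgeR).

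Among 16 other factors that promote adipogenesis, 2 rose and 1 fell, where 5.94% of all tested genes were called higher and 6.18% lower. DESeq2 called 4 of the 16 and limma-voom 6, against 16.5% and 25.3% of all genes they tested. *Ebf2*, an early B-cell factor of the brown and beige fat lineage, had 0 counts in WT1 and WT2, 0.115 and 0.310 CPM in WT3 and WT4, and 1.16, 1.21, 3.45 and 2.31 CPM in HOMO1 to HOMO4, with a log2 fold change of 4.10 (SE 0.91) and an adjusted p of 0.0237 (edgeR). *Zfp467*, a zinc finger cofactor that favours fat over bone, measured 14.4, 12.4, 15.03 and 8.36 CPM in WT1 to WT4 and 26.5, 27.8, 30.7 and 30.7 CPM in HOMO1 to HOMO4, with a log2 fold change of 1.20 (SE 0.20) and an adjusted p of 0.00925 (edgeR). *Klf4*, a Krüppel-like factor that induces *Cebpb* early in adipogenesis, fell by 1.57 on the log2 scale (adjusted p = 0.0194, edgeR), with WT3 at 55.9 CPM just above the highest HOMO library at 52.4 CPM. The call of *Ebf2*, whose fitted fold change depends on the prior count added to near-empty WT libraries, was lost without any single HOMO library, and that of *Klf4* without HOMO1 or HOMO2 (highest adjusted p = 0.0595 and 0.0749, edgeR).

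Among 16 factors that restrain adipogenesis, 2 rose and 3 fell, against the same shares of 5.94% and 6.18% of all tested genes. DESeq2 called 6 of the 16 and limma-voom 9, against 16.5% and 25.3% of all genes they tested. *Klf2*, which represses *Pparg*, measured 6.69, 7.08, 11.4 and 8.13 CPM in WT1 to WT4 and 25.9, 24.4, 45.6 and 40.7 CPM in HOMO1 to HOMO4 and rose by 2.04 on the log2 scale (adjusted p = 0.00469, edgeR). It was called in 19 of the 20 alternatives, all but the summed pairs. *Dlk1*, the preadipocyte factor, rose by 1.71 (adjusted p = 0.0182). *Foxc2*, *Nr2f2* and *Gata2* fell by 2.59, 0.84 and 0.72 (adjusted p = 0.0132, 0.0189 and 0.0102, edgeR). They encode a forkhead factor, the nuclear receptor COUP-TFII and a GATA factor. The call of *Dlk1* was lost without HOMO1 or HOMO3, those of *Foxc2* and *Nr2f2* without HOMO1 or HOMO2, and that of *Gata2* without HOMO1, with adjusted p-values of up to 0.0567, 0.0535, 0.0753 and 0.0502 (edgeR).

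Of 8 tested genes of lipid droplet proteins 2 were called, both lower in HOMO, where 6.18% of all tested genes were called lower. The log2 fold change was negative for all 8, with a median of -0.61, and for 52.7% of all tested genes. *Plin4*, a perilipin of nascent droplets, measured 10.97, 17.03, 2.58 and 22.7 CPM in WT1 to WT4 and 0.312, 0.363, 1.37 and 1.10 CPM in HOMO1 to HOMO4, with a log2 fold change of -4.10 (SE 0.76) and an adjusted p of 0.0132 (edgeR). *Bscl2*, which encodes seipin, fell by 0.63 (adjusted p = 0.0256, edgeR), a call lost without WT2, WT3 or any single HOMO library (adjusted p up to 0.0837). The call of *Plin4* was lost without HOMO2 (adjusted p = 0.0521). The list includes the member *Plin2*, whose log2 fold change turned to 0.40 with limma-voom and 0.12 without WT3. *Plin1*, *Cidea* and *Fitm1* had at most 3 counts in each library. DESeq2 called 3 of 10 tested genes of this list and limma-voom 3 of 8, against 16.5% and 25.3% of all genes they tested.

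Of 15 tested genes of fatty acid uptake, binding and activation, edgeR called *Lpl* and *Slc27a1* higher and none lower, against 5.94% and 6.18% of all tested genes. DESeq2 called 3 of the list, among them *Cd36* lower, against 16.5% of all genes it tested. With limma-voom 3 of 15 were called, against 25.3% of all tested genes. By edgeR the log2 fold change was negative for 10 of the 15, with a median of -0.22, and for 52.7% of all tested genes. *Slc27a1*, a fatty acid transport protein, rose by 0.76 (adjusted p = 0.0398, edgeR), a call lost without WT1, WT2, WT4 or any single HOMO library (adjusted p up to 0.122). The following genes that act with lipoprotein lipase or on fatty acid entry were picked after their values were seen. *Lmf1*, which encodes the factor that matures the enzyme, had a log2 fold change of -0.22 (adjusted p = 0.569), *Angptl4*, which encodes a secreted inhibitor of it, one of -0.86 (adjusted p = 0.259, edgeR). *Gpihbp1*, whose product anchors the enzyme to capillaries, was too scarce to be tested, at 0 to 0.230 CPM. *Cd36*, the fatty acid receptor of fat cells and macrophages, measured 1.69, 3.65, 49.2 and 14.9 CPM in WT1 to WT4 and 0.401, 0.212, 2.64 and 1.70 CPM in HOMO1 to HOMO4, highest in WT3 and WT4 like the macrophage markers, with a log2 fold change of -3.83 (SE 1.19) and an adjusted p of 0.0649 (edgeR). It was called lower in 4 of the 20 alternatives, with an adjusted p of 0.00939 with DESeq2, 0.0192 without WT1 and WT2, 0.0212 with a replicate block and 0.0468 without WT1 (edgeR for the last 3).

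In triglyceride synthesis 1 of 12 tested genes was called, lower in HOMO, where 6.18% of all tested genes were called lower and 12.1% in either direction. DESeq2 and limma-voom each called 1 of 12, against 16.5% and 25.3% of all genes they tested. *Lpin3*, a phosphatidate phosphatase, measured 12.5 to 20.7 CPM in WT and 1.03 to 3.76 CPM in HOMO. Every HOMO library was below every WT library, and genotypes do not overlap in either direction for 27.3% of all tested genes. The fit gave *Lpin3* a log2 fold change of -2.72 (SE 0.46) and an adjusted p of 0.00979 (edgeR). In triglyceride breakdown edgeR called 0 of 6 tested genes, with 2 at an unadjusted p under 0.05, against 4573 of all 14150 tested genes. DESeq2 called 0 and limma-voom 2, against the same 16.5% and 25.3%. Among adipokines and adiponectin receptors 0 of 4 tested genes were called (edgeR), and 1 had an unadjusted p under 0.05. DESeq2 called 1 of 5 and limma-voom 2 of 4, to be read against the same shares of all tested genes.

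Of 10 tested lung lipofibroblast genes 2 were called, both lower in HOMO, where 6.18% of all tested genes were called lower. The log2 fold change was negative for 9 of the 10, with a median of -1.13, and for 52.7% of all tested genes. *Gyg*, which encodes the glycogen primer glycogenin, measured 250.4, 354, 630.2 and 821 CPM in WT1 to WT4 and 59.7, 57.8, 56.5 and 62.7 CPM in HOMO1 to HOMO4, with a log2 fold change of -3.12 (SE 0.36) and an adjusted p of 0.00270 (edgeR). *Npnt*, which encodes the matrix protein nephronectin, fell by 2.06 (adjusted p = 0.0364, edgeR), a call lost without WT1, WT2 or any single HOMO library (adjusted p up to 0.116). The 9 include the members *Plin2* and *Pparg*, whose signs turned in alternatives, *Pparg* to 0.16 without HOMO1 and HOMO2 and to 0.41 without WT1 and WT2, and *Plin2* as given above. In *Limch1* (19.1, 24.9, 400 and 114 CPM in WT1 to WT4, 40.7 to 57.5 CPM in HOMO) and *Pth1r*, WT1 and WT2 lay below every HOMO library. *Fgf10* was at 442 CPM in WT4 against 51.0 to 125 CPM in the other WT libraries. Every HOMO library was below every WT library for *Gyg* and *Npnt* alone of the 10. Genotypes do not overlap for 27.3% of all tested genes in either direction, and for 14.0% with HOMO above. DESeq2 called 5 of 11 tested genes of this list and limma-voom 5 of 10, against 16.5% and 25.3% of all genes they tested.

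**Figure D4:**
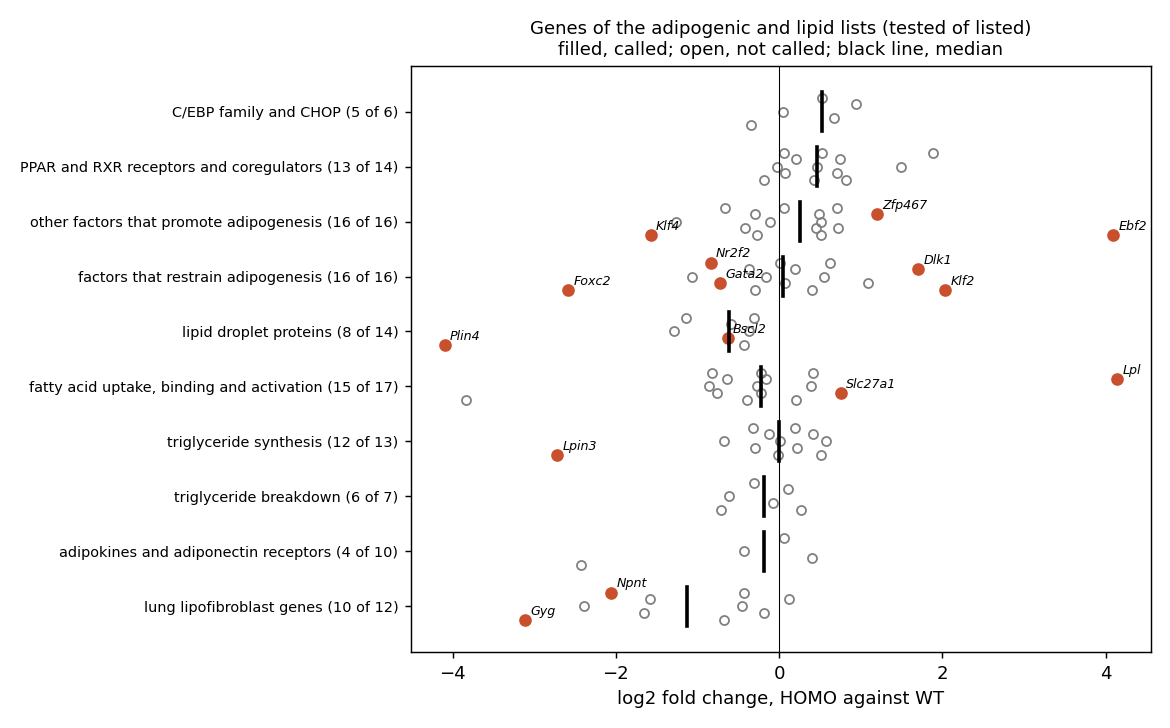
Log2 fold change of HOMO against WT for the tested genes of the 10 adipogenic and lipid lists (tested of listed in brackets), with called genes filled and named, other genes open and the median of each list as a black line. The medians run from -1.13 for the lung lipofibroblast genes to 0.53 for the C/EBP genes, and *Lpl* and *Ebf2* lie farthest to the right.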

How the data were processed

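Total RNA of pFBs was sequenced with the NEBNext Ultra kit on poly-A selected RNA. The authors cleaned the reads with fastp, aligned them to mm10 with STAR and counted reads per gene with featureCounts, and the deposited values are whole-number counts per gene symbol, not normalized, for the 4 WT and 4 HOMO libraries. DESeq2 was their test. Here edgeR 4.0.16 (R 4.3.3; TMM, filterByExpr) was fitted to all genes, leaving 14150, with thresholds of 0.05 for the adjusted p and 0.6 for the log2 fold change. DESeq2 1.42.0 and limma 3.58.1 (voom with sample weights) were alternatives. Scripts were tested on simulated data. Correlations used log2 CPM with a prior count of 2. Positions and exon lengths came from GENCODE M21. The members and lists were chosen with earlier results of these data known. Named genes were all members, the other C/EBP and PPAR genes, and from each list the called genes (at most 3 per direction). The 3 most similar tested genes were named for *Lpl*, *Pparg* and *Cebpa*. Genes named outside this rule include *Lmf1*, *Angptl4*, *Gpihbp1*, *Cd36*, *Limch1*, *Pth1r* and *Fgf10*. Floors of 3 counts cover counting error only.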

Additional observations from a re-analysis of the deposited data

Results flagged for a closer look

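*Pparg*, which encodes the nuclear receptor PPARγ, stood apart in WT3, at 0.61 log2 CPM against 2.97 to 3.25 log2 CPM in the other 3 WT libraries, a gap that exceeded Dixon's 95% critical value for 4 samples. The 18 groups examined were the 9 tested members in both genotypes, and chance flags about 1 in 20 groups. WT1 and WT2 are near-identical, which narrows the range of the other libraries. WT3 also held the highest macrophage marker sum, at 1972 CPM, and the part of that in the level of *Pparg* was not tested.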

How the results depend on the processing

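The *Lpl* fold change kept its direction in all 20 alternatives and its call in 18. The count of called genes was 1716 with edgeR over 8 libraries, 2913 with DESeq2, 3573 with limma-voom and sample weights, 947 with a replicate block, 0 with the near-identical pairs summed (2057 at an unadjusted p under 0.05, edgeR), 76 without HOMO1 and HOMO2, 913 without HOMO3 and HOMO4, 3271 without WT1 and WT2, and 507 to 2192 with 1 library left out. Members called numbered 6 with limma-voom (*Cebpa*, *Cebpb*, *Cebpd*, *Lpl*, *Zfp423* and *Klf15*), 0 with summed pairs and without HOMO1 and HOMO2, 2 without WT1 and WT2 (*Lpl* and *Plin2*), and 1 to 2 with 1 library left out. The members whose genotypes do not overlap numbered 1 to 3 with 1 library left out, the 3 being *Cebpb*, *Cebpd* and *Lpl* without WT3. The share of all tested genes without overlap was computed over 8 libraries only, so these counts have no matching share. The other pathway genes called numbered 25 of 97 tested with DESeq2 and 33 of 93 with limma-voom, against 16.5% and 25.3% of all genes these tools tested. They numbered 6 with the replicate block, 0 with summed pairs, 1, 8 and 26 without HOMO1 and HOMO2, HOMO3 and HOMO4, and WT1 and WT2, and 5 to 20 with 1 library left out.

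limma-voom gave WT1 and WT2 weights of 2.24 and 8.14 and WT3 and WT4 weights of 0.0927 and 0.164, and under it the log2 fold changes of *Fabp4*, *Plin2*, *Ddit3*, *Ppard* and *Lmf1* turned to 0.28, 0.40, 0.44, -0.027 and 0.18. Without HOMO1 and HOMO2 those of *Pparg*, *Klf15* and *Ppard* turned to 0.16, -0.017 and -0.094. Without WT1 and WT2 those of *Pparg*, *Cebpa*, *Zfp423* and *Cebpg* turned to 0.41, -0.028, 0.076 and -0.18, and with summed pairs that of *Cebpg* to -0.010. With 1 library left out, that of *Plin2* ranged from -0.66 to 0.12, that of *Ppard* from -0.025 to 0.15 and that of *Cebpg* from -0.047 to 0.20. The cause was not tested.

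Same-numbered WT and HOMO libraries did not deviate together (r from -0.12 to 0.014), so the numbers do not pair them; the replicate block left 1 member called, *Lpl*. Leaving out each whole pair, and all runs over the other pathway genes, were chosen after seeing the data. *Zfp423* has no value under a minimum of 1 CPM in 4 libraries, and *Adipoq* has none in any test.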
